A study of Mus musculus with 10 samples.

Results

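The genes described here are 10 genes of insulin signalling and its FoxO branch, namely the receptors Insr and Igf1r, their substrates Irs1 and Irs2, the transcription factors Foxo1 and Foxo3, and the FoxO targets Ccng2, Cited2, Txnip and Pik3ip1. They were chosen by name, with earlier results of these data known. Each was represented by the probe set (the group of array probes read as 1 value) that carried its symbol alone and had the highest mean over all arrays, and all 10 were found among the 19938 genes measured this way. The labels describe the cells as terminally differentiated mouse neurons on a 129Sv-C57Bl/6 background. Transcripts were measured on Affymetrix whole-transcript arrays, 1 array for each sample. One group of 5 samples received SP600125 at 25 µM in 3 applications spaced 2 hours apart, and the other group of 5 received DMSO, the solvent, on the same schedule. SP600125 blocks the ATP site of JUN N-terminal kinases (JNK) and is known to act on other kinases as well. The samples fall into 2 batches of the drug, with replicates a and b of each group in drug batch 1 and the remaining 3 (c, d, e) in drug batch 2. The time between the last application and the harvest is not given in the sources used here. No label ties the replicates to separate cultures, so the p-values below rest on sample spread that could be technical alone.

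Insulin and insulin-like growth factor 1 activate receptor tyrosine kinases, which phosphorylate the insulin receptor substrates. These recruit PI 3-kinase, its lipid product activates the kinase AKT, and AKT phosphorylates the FoxO factors so that they are held in the cytoplasm by 14-3-3 proteins. When the pathway is quiet, FoxO factors enter the nucleus and raise genes that feed back on the pathway, such as Irs2, and genes of growth arrest and metabolism. In the brain the pathway is known for its part in neuronal growth, survival and energy balance, and JNK is known to phosphorylate IRS1 on serine residues, which dampens insulin signalling.

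Irs2 was higher on every SP600125 array than on any DMSO array, and its increase of 28% was the clearest change among the 10 genes. Ccng2, an atypical cyclin linked to cell cycle exit, also rose, while Cited2 and the receptor gene Igf1r fell by smaller amounts. The other 6 genes, both FoxO factors among them, did not pass the test. In a limma fit of the deposited values that included the drug batch, 4 of the 10 genes had an adjusted p under 0.05 (Benjamini-Hochberg over all 19938 genes), 2 of them higher and 2 lower. Over all genes 46.9% passed, 17.0% as rises and 29.9% as falls, so the 10 genes changed about as often as any gene on these arrays. Of these 4 calls, those of Irs2 and Ccng2 were also made in each of the 10 fits that left out 1 array. Of all calls on the deposited values 36.2% were rises, a share that became 25.0% with quantile normalization, 14.8% with median centring over all probe sets and 49.0% when arrays were centred on named genes. The median change of all genes was −0.03 as deposited and −0.13 after median centring, so changes after median centring are to be read against that lower value. After cyclic loess, a scaling that equalizes the arrays along the signal range, 4 of the 10 rose (Irs2, Ccng2, Foxo3 and Pik3ip1) and 0 fell, also at an unadjusted p under 0.05. Of all genes 27.2% were called there, 9.44% as rises and 17.7% as falls.

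Some properties of the arrays bear on all of these values. The neuronal label was checked on 12 neuron markers, whose mean log2 level was 8.45 to 9.06 on SP600125 arrays and 8.82 to 9.19 on DMSO arrays, so neuronal transcripts were present in both groups. Of these markers 11 fell and 1 did not pass, and their summed log2 level was 101 to 109 after SP600125 against 106 to 110 after DMSO. In such bulk samples, fewer neurons and less RNA per neuron cannot be told apart. Markers of other cells were counted too, to be read beside 17.0% of all genes higher and 29.9% lower. Of 8 astrocyte markers 1 rose and 4 fell (summed level 66.2 to 67.0 against 66.8 to 67.4), of 10 fibroblast and endothelial markers 6 fell (79.0 to 80.2 against 82.1 to 83.1), of 8 neural progenitor markers 4 fell (67.6 to 68.3 against 69.8 to 70.5), of 8 oligodendrocyte lineage markers 4 fell (56.1 to 57.0 against 57.3 to 57.8), of 8 microglia markers 4 rose (39.3 to 40.3 against 37.2 to 39.2), and of 6 pluripotency markers 3 rose (30.5 to 31.3 against 28.3 to 30.4), each range given for SP600125 and then DMSO. After cyclic loess 8 neuron, 6 fibroblast and endothelial, 2 astrocyte, 2 oligodendrocyte lineage and 2 progenitor markers fell. In that scaling 2 astrocyte, 1 progenitor, 1 microglia and 3 pluripotency markers rose. The mean level was 4.95 and 4.78 for microglia markers and 5.15 and 4.90 for pluripotency markers, after SP600125 and DMSO. These means lie under 5.43, below which 95% of 1015 olfactory receptor genes lay, so much of the signal of these 2 lists may be close to background. Some markers that rose were brighter, namely Dppa5a (6.66 after SP600125 and 5.94 after DMSO) and Cx3cr1 (6.17 and 5.73). Tdgf1 (5.84 and 5.37) and Nanog (5.51 and 5.14) lay above 5.43 after SP600125 only. The remaining rises, Aif1, Itgam and C1qb, lay under it in both groups. In the same order, means were 8.33 and 8.41 for astrocyte and 8.51 and 8.76 for progenitor markers. Fibroblast and endothelial markers had 7.95 and 8.27, and oligodendrocyte lineage markers 7.05 and 7.19, beside 8.63 and 9.11 for neuron markers. Transcripts of other cells were thus present in both groups, though not evenly over each list. The fibroblast and endothelial markers that fell were Col1a1, Col1a2, Col3a1, Acta2, Tagln and Kdr. The endothelial markers Pecam1 (change 0.01) and Cdh5 (0.04) did not pass, and Pecam1, at 4.82 in both groups, lay under 5.43. Among the progenitor markers Nes fell most (−1.34), and Mki67 (−0.44), Top2a (−0.20) and Vim (−0.16) fell less. Sox2, Pax6, Hes5 and Fabp7 did not pass, and the list median was −0.09. Gene levels here are those of whole samples, and cell shares were not tested. The part of all these markers in the changes of the 10 genes was not tested. The SD of gene levels on an array was 1.63 to 1.71 after SP600125 and 1.76 to 1.84 after DMSO, so the SP600125 arrays spanned a narrower range. Both replicate b arrays stood apart from their groups, with a neuron marker mean of 9.06 on SP600125 replicate b against at most 8.58 on the other SP600125 arrays, and of 8.82 on DMSO replicate b against at least 9.17 on the other DMSO arrays. On these markers, as for Cited2 below, each b array lay toward the other group, against its label. Some genes ran as labelled on the b arrays, where the SP600125 array read 7.66 for Irs2, 9.67 for Ccnd2 and 7.16 for Igf1. The DMSO array read 7.19 for Irs2, 10.32 for Ccnd2 and 7.61 for Igf1. The groups of these genes did not overlap on any array, so their order on the b arrays follows from that. Bnip3 (8.69 after SP600125 and 8.22 after DMSO), Irs1 (8.33 and 8.13) and Pik3ip1 (6.61 and 6.78) ran against their group means there. Whether material of the b samples was exchanged or mixed was not tested. Values without both b arrays are given for the members they move most.

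**Figure D1:**
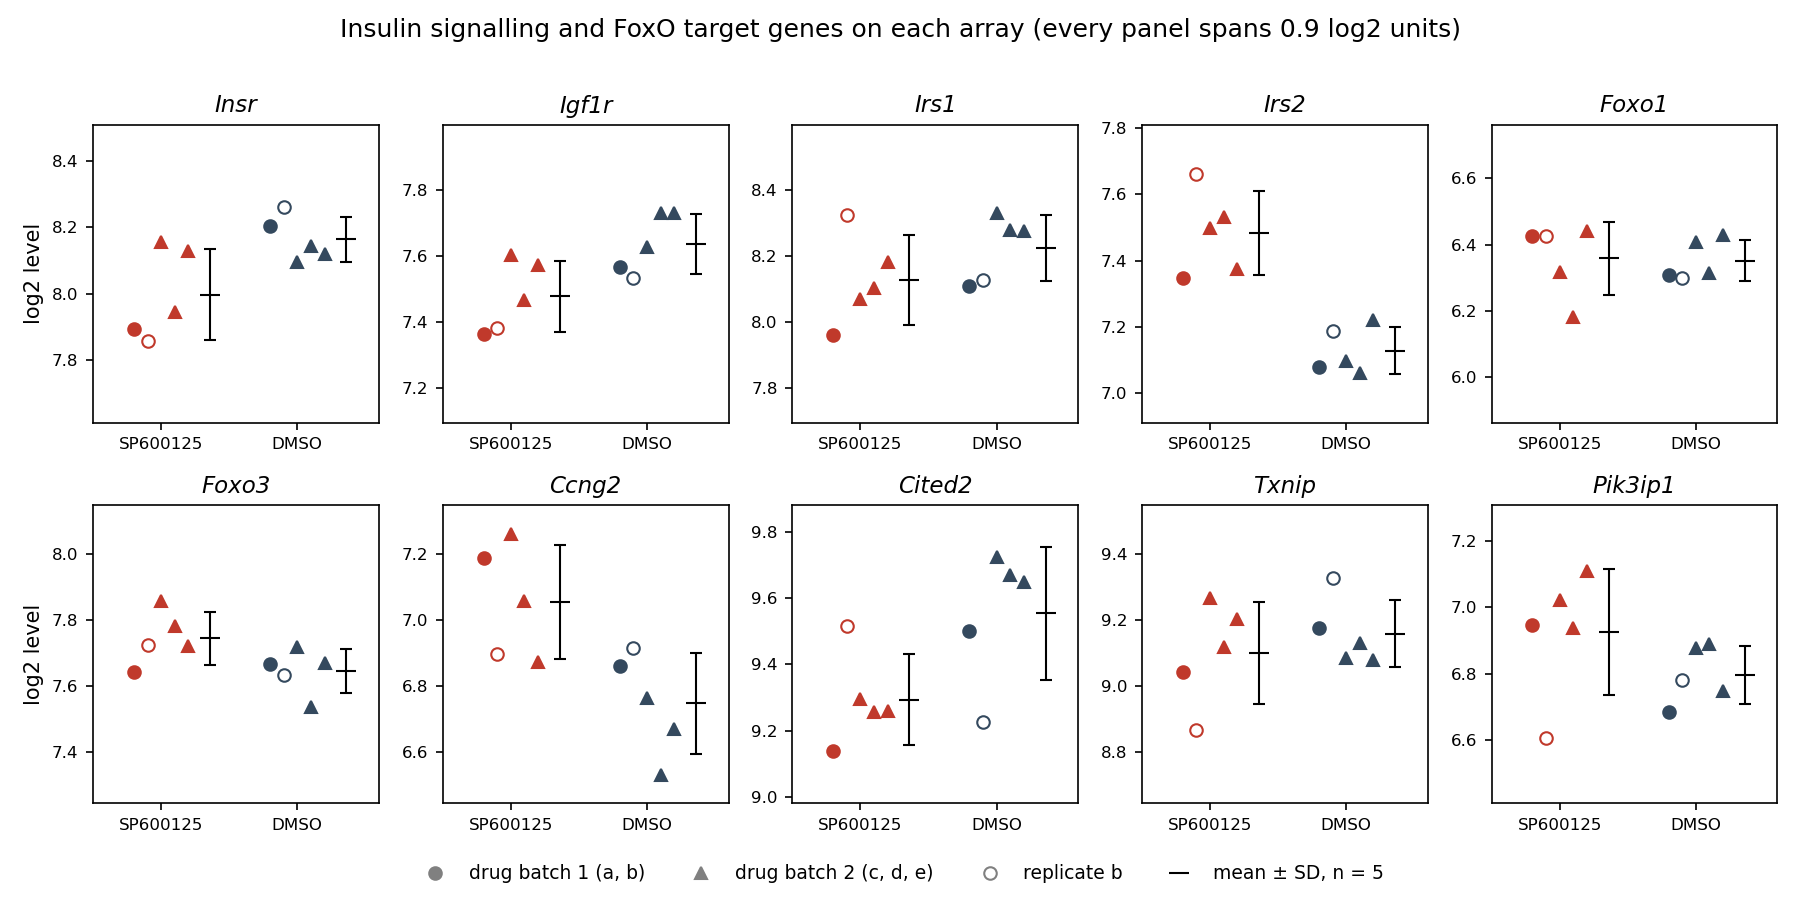
Log2 level of each gene on each array (y axis, every panel spanning 0.9 log2 units) for SP600125 (red, left) and DMSO (dark, right). Circles are drug batch 1, triangles are drug batch 2, open circles are the b arrays, and bars show mean ± SD (n = 5). Irs2 is the gene whose groups do not overlap, and the open circles of Cited2 and Txnip, and that of Pik3ip1 after SP600125, lie apart from the other arrays of their group.

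At the receptors, Igf1r encodes the IGF1 receptor. Its log2 level was 7.36, 7.38, 7.60, 7.47 and 7.57 on SP600125 arrays a to e, and 7.57, 7.53, 7.63, 7.73 and 7.73 on DMSO arrays a to e. Within each drug batch every SP600125 array lay below every DMSO array, although the groups overlapped over both batches. The mean was 7.48 ± 0.11 after SP600125 and 7.64 ± 0.09 after DMSO (SD, n = 5), so Igf1r fell by 0.16 (SE 0.06, limma adjusted p = 0.0324). Similar values were found in drug batch 1 (−0.18) and drug batch 2 (−0.15). The direction depended on the scaling, since the value was 0.02 after cyclic loess (adjusted p = 0.782), −0.03 after quantile normalization (adjusted p = 0.663) and −0.26 after centring each array on its median (adjusted p = 0.00277), and the adjusted p ran from 0.00277 to 0.782 over its 22 alternatives.

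Insr encodes the insulin receptor, which in neurons forms hybrids with the IGF1 receptor. Its level was 7.89, 7.86, 8.16, 7.94 and 8.13 on SP600125 arrays a to e, and 8.20, 8.26, 8.10, 8.14 and 8.12 on DMSO arrays a to e. The SP600125 arrays of drug batch 1 were clearly the lower ones, and in drug batch 2 the groups overlapped. Over both batches the change was −0.17 (SE 0.07, 95% interval −0.32 to −0.01, limma adjusted p = 0.0678), and it was 0.02 after cyclic loess. Without both b arrays it was −0.11 (adjusted p = 0.234). A second Insr probe set had a similar change of −0.16 (SE 0.06, adjusted p = 0.0548 over all named probe sets), and the mean of both probe sets passed (−0.16, limma adjusted p = 0.0456). Drug batch 1 gave −0.36 and drug batch 2 gave −0.04, a difference of 0.31 (SE 0.12, limma interaction adjusted p = 0.519).

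Irs1 and Irs2 encode the docking proteins that the active receptors phosphorylate. The Irs2 promoter window from RefSeq (GRCm38.p6, chr8:11008880-11009179, minus strand, 250 bases before to 50 after the annotated start) is shown because Irs2 gave the clearest change, with its E-box, CACGTG, in capitals.
Irs2: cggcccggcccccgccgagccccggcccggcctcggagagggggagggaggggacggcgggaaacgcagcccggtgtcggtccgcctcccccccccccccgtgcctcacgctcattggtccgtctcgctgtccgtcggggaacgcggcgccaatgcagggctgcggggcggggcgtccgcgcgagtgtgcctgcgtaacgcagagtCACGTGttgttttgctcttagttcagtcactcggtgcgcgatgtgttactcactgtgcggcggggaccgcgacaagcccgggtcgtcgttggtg
A stretch of the Irs1 window (chr1:82291519-82291584, minus strand) is set beside it because Irs1 is the sister gene and did not rise, with the same motif in capitals.
Irs1: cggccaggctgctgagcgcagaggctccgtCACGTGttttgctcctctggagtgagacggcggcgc
Counted from the annotated start, the E-box began at position −44 in Irs2 and at position −115 in Irs1. The longest run that both windows share is 10 bases, and 1 of the 2 runs of that length, GTCACGTGTT, holds the E-box. The other is TGTTTTGCTC, whose share of all windows was not counted. On either strand, CACGTG occurred in 7.15% of the 32851 promoter windows of this length and GTCACGTGTT in 0.0761% of them. CACGTG and GTCACGTGTT overlap by construction, and a match is a description of these letters only.

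Irs2 had a log2 level of 7.35, 7.66, 7.50, 7.53 and 7.38 on SP600125 arrays a to e, and of 7.08, 7.19, 7.10, 7.06 and 7.22 on DMSO arrays a to e. The lowest SP600125 array lay above the highest DMSO array, and such a separation in this direction was found for 6.65% of all genes. Irs2 was the 1 member of 10 whose groups did not overlap, against 23.1% of all genes, 16.4% being lower after SP600125. The means were 7.48 ± 0.13 after SP600125 and 7.13 ± 0.07 after DMSO (SD, n = 5), which is higher by 0.35 (SE 0.07, 95% interval 0.20 to 0.51, 1.28-fold, limma adjusted p = 0.00155). The rise was alike in both drug batches, at 0.37 in drug batch 1 and 0.34 in drug batch 2, with an interaction of −0.03 (SE 0.15, adjusted p = 0.967). It passed in 21 of 22 alternatives and ran from 0.25 after median centring to 0.52 after cyclic loess. It missed the threshold in drug batch 1 alone, where 2 arrays stood against 2 (adjusted p = 0.153, with a range of 0.000233 to 0.153 over all alternatives). Among the 3363 genes with a mean log2 level between 7 and 8, where Irs2 lies, the median change was −0.22, 99 rose and 2037 fell, and 1.22% had a change at least as high as that of Irs2.

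Irs1 had levels of 7.96, 8.33, 8.07, 8.10 and 8.18 on SP600125 arrays a to e, and of 8.11, 8.13, 8.33, 8.28 and 8.28 on DMSO arrays a to e. SP600125 replicate b was the high array of its group, and the other 4 lay between 7.96 and 8.18. The change was −0.10 (SE 0.07, limma adjusted p = 0.296) over all arrays and −0.17 without both b arrays (adjusted p = 0.0303), and the adjusted p ran from 0.0228 to 0.918 over its alternatives. Its direction depended on the scaling, with 0.09 after cyclic loess, 0.05 after quantile normalization and −0.20 after median centring. A second, dim Irs1 probe set went the other way (4.47 ± 0.24 after SP600125 and 4.19 ± 0.12 after DMSO, SD, n = 5, change 0.28, SE 0.08, adjusted p = 0.0165 over all named probe sets). That level is under 5.43, below which 95% of 1015 olfactory receptor genes lay, so its signal may be close to background.

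**Figure D2:**
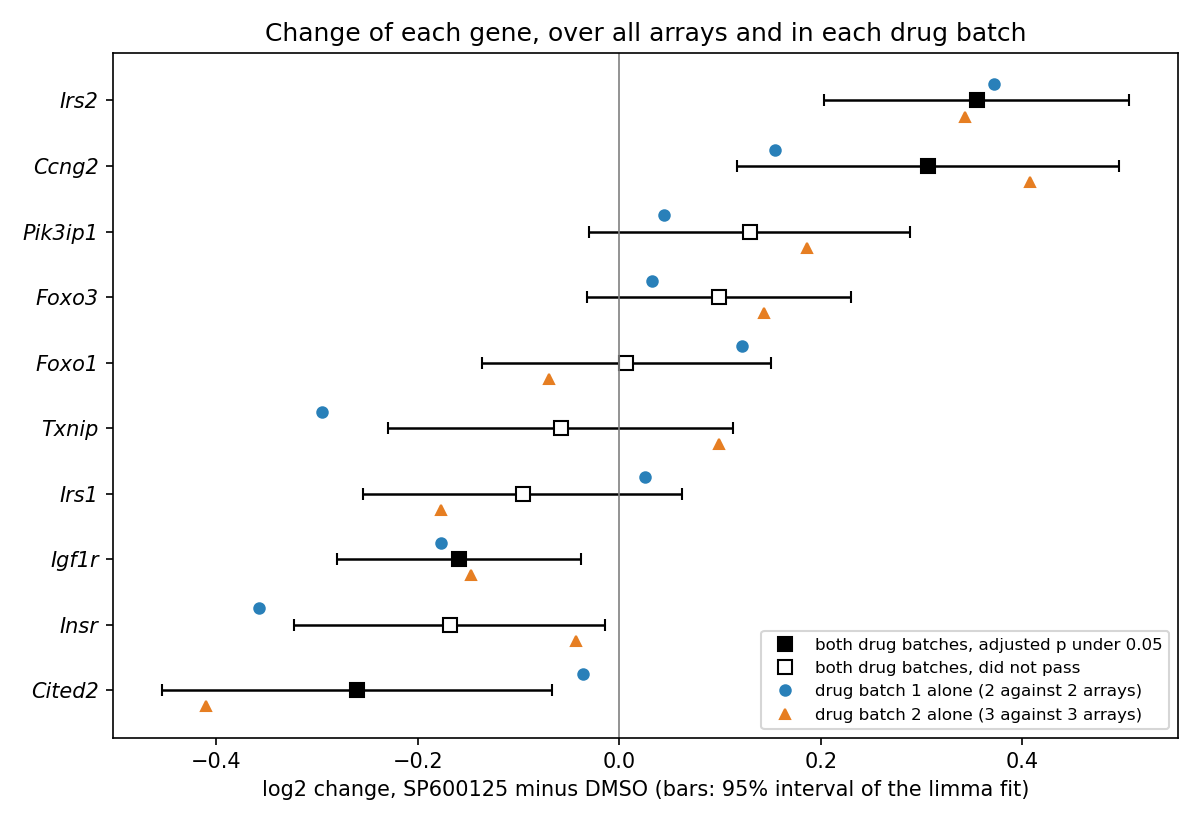
Log2 change of each gene, SP600125 minus DMSO (x axis), for all 10 arrays (squares with the 95% interval of the limma fit, filled where the adjusted p was under 0.05) and for drug batch 1 (blue circles) and drug batch 2 (orange triangles) alone. The 2 batch values of Irs2 and of Igf1r lie close together, at 0.37 and 0.34 and at −0.18 and −0.15, while those of Cited2, Insr and Txnip lie far apart.

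Foxo1 and Foxo3 encode the forkhead factors that AKT keeps out of the nucleus, so their transcript levels need not follow their activity. Foxo1 lay between 6.18 and 6.44 after SP600125 and between 6.30 and 6.43 after DMSO, and the ranges overlapped almost fully. Its change was 0.01 (SE 0.07, 95% interval −0.14 to 0.15, limma adjusted p = 0.938), the smallest of the 10, and it passed in 0 of 22 alternatives. Foxo3 lay between 7.64 and 7.86 after SP600125 and between 7.54 and 7.72 after DMSO, with a change of 0.10 (SE 0.06, 95% interval −0.03 to 0.23, limma adjusted p = 0.194). In drug batch 2 all 3 SP600125 arrays were above all 3 DMSO arrays, and in drug batch 1 they overlapped. Foxo3 rose after cyclic loess (0.29, adjusted p = 0.0037) and after quantile normalization (0.23, adjusted p = 0.00983), and it was at 0.00 after median centring (adjusted p = 0.986), so its call rests on the scaling. The adjusted p of Foxo3 ran from 0.00311 to 0.986 over its 22 alternatives.

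Among the FoxO targets, Ccng2 encodes cyclin G2, which is known to hold cells out of the cell cycle. Its log2 level was 7.19, 6.90, 7.26, 7.06 and 6.87 on SP600125 arrays a to e, and 6.86, 6.91, 6.76, 6.53 and 6.67 on DMSO arrays a to e. In drug batch 2 the groups were separated, and in drug batch 1 the b arrays were nearly equal. The means were 7.05 ± 0.17 after SP600125 and 6.75 ± 0.15 after DMSO (SD, n = 5), a change of 0.31 (SE 0.09, 95% interval 0.12 to 0.50, 1.24-fold, limma adjusted p = 0.0123). The rise measured 0.15 among drug batch 1 arrays and 0.41 among those of drug batch 2 (interaction adjusted p = 0.671). Ccng2 passed in 20 of 22 alternatives and in all 10 fits without 1 array, and did not pass in drug batch 1 alone (adjusted p = 0.456) or after median centring (0.21, adjusted p = 0.069), with a range of adjusted p from 0.00125 to 0.456. Without both b arrays the rise was 0.39 (adjusted p = 0.00419). Of the 3833 genes with a mean log2 level between 6 and 7, 277 rose and 1574 fell, and 3.08% had a change at least as high as that of Ccng2.

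Cited2 encodes a transcriptional coregulator that binds CBP and p300 and limits the hypoxia response. A stretch of its promoter window (GRCm38.p6, chr10:17723045-17723110, plus strand) is shown because it is the third window with an E-box, in capitals, which began at position −153.
Cited2: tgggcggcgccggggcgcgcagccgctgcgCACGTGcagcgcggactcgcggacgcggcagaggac
Its log2 level was 9.14, 9.52, 9.30, 9.26 and 9.26 on SP600125 arrays a to e, and 9.50, 9.22, 9.72, 9.67 and 9.65 on DMSO arrays a to e. The b arrays were turned round, with SP600125 replicate b at the level of DMSO replicate a and DMSO replicate b at the level of the other SP600125 arrays. Over all arrays the change was −0.26 (SE 0.09, 95% interval −0.45 to −0.07, limma adjusted p = 0.0299). Without both b arrays it was −0.40 (adjusted p = 0.000243), in drug batch 2 alone it was −0.41 (adjusted p = 0.00116), and in drug batch 1 alone it was −0.04 (adjusted p = 0.894). The difference between the drug batches was −0.37 (SE 0.16, limma interaction adjusted p = 0.52). The fall was called in 10 of its 22 alternatives and in 2 of the 10 fits without 1 array, was −0.12 after cyclic loess (adjusted p = 0.291), and kept its sign in all 22.

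Txnip encodes the thioredoxin-interacting protein, an arrestin that curbs glucose uptake. It is the only member whose promoter window held the FoxO core motif GTAAACA, which is in capitals in the stretch below (GRCm38.p6, chr3:96557806-96557872, plus strand) and began at position −121.
Txnip: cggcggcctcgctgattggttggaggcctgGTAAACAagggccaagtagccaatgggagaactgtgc
On either strand this motif occurred in 3.65% of the 32851 windows, and 9 of the 10 genes had a window, all but Insr. No other form of FoxO site was searched for, so such sites in these windows were not counted. Txnip lay at 9.04, 8.87, 9.27, 9.12 and 9.20 on SP600125 arrays a to e, and at 9.18, 9.33, 9.08, 9.13 and 9.08 on DMSO arrays a to e. It was lower after SP600125 in drug batch 1 and mostly higher in drug batch 2, and the groups overlapped. The change over all arrays was −0.06 (SE 0.08, 95% interval −0.23 to 0.11, limma adjusted p = 0.564), made up of −0.29 in drug batch 1 and 0.10 in drug batch 2. That difference of 0.39 (SE 0.13) was the largest between the drug batches among the 10 genes, with a limma interaction adjusted p of 0.49. With cyclic loess and without both b arrays, a combination chosen after seeing the data, Txnip rose by 0.22 (adjusted p = 0.0138), and the adjusted p ran from 0.0138 to 0.99 over its alternatives.

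Pik3ip1 encodes a transmembrane protein that binds PI 3-kinase and inhibits it. It lay at 6.95, 6.61, 7.02, 6.94 and 7.11 on SP600125 arrays a to e, and at 6.68, 6.78, 6.88, 6.89 and 6.75 on DMSO arrays a to e. SP600125 replicate b was the lowest of all 10 arrays, and the other 4 SP600125 arrays lay above all DMSO arrays. The change was 0.13 (SE 0.07, 95% interval −0.03 to 0.29, limma adjusted p = 0.163) over all arrays and 0.21 without both b arrays (adjusted p = 0.0229), with a range of adjusted p from 0.00171 to 0.847. After cyclic loess it was 0.25 (adjusted p = 0.0329).

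The values of 3 of the 10 genes (Irs1, Foxo1 and Txnip) had opposite signs in the drug batches, against 20.4% of all genes, and none of the 3 passed in either batch. The interaction of treatment and drug batch was called for 0 of the 10 genes by limma, and for 0.0% of all genes, while 3 of the 10 (Insr, Cited2 and Txnip) had an unadjusted p under 0.05, against 9.29% of all genes. In drug batch 2 alone Irs2 and Ccng2 rose and Cited2 fell, against 38.4% of all genes called there. In drug batch 1 alone 0 of the 10 passed and 0.00502% of all genes were called, while 3 of the 10 had an unadjusted p under 0.05, against 24.6% of all genes. Without both b arrays 6 of the 10 passed, with Irs2, Ccng2 and Pik3ip1 higher and Igf1r, Irs1 and Cited2 lower, against 48.7% of all genes.

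The number of members called moved with the scaling of the arrays. After quantile normalization 3 rose (Irs2, Foxo3 and Ccng2) and 0 fell, with 1 lower at an unadjusted limma p under 0.05. Of all genes 30.0% were called there, 1497 higher and 4494 lower. After median centring Irs2 rose and Insr, Igf1r, Irs1 and Cited2 fell, against 50.7% of all genes (1500 higher and 8602 lower). After centring on named genes Irs2 and Ccng2 rose and Cited2 fell, against 48.0%. Combining cyclic loess with leaving out both b arrays, Irs2, Foxo3, Ccng2, Txnip and Pik3ip1 rose and Cited2 fell, against 32.2% of all genes. Other fits of the deposited values gave 3 calls without the batch term (43.7% of all genes), 4 after a filter on mean levels of at least 5 (56.3%), 5 with limma-trend (46.9%) and 2 with a replicate block (41.4%). The calls under the block were Irs2 and Ccng2, and limma-trend added a fall of Insr (adjusted p = 0.0457).

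**Figure D3:**
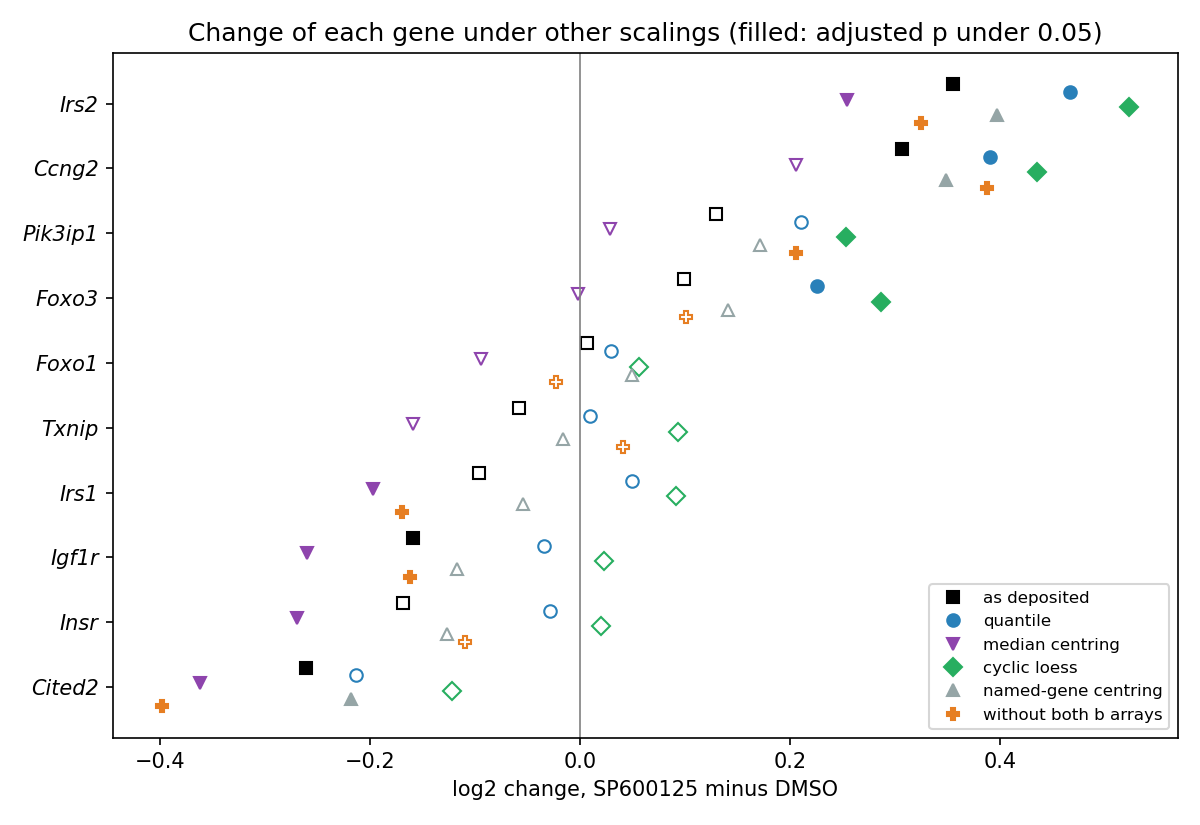
Log2 change of each gene, SP600125 minus DMSO (x axis), on the deposited values, under 4 other scalings of the arrays, and without both b arrays. Filled symbols had an adjusted p under 0.05. Irs2 is filled in all 6 settings, Ccng2 in all but median centring, and Igf1r, Insr and Irs1 lie on both sides of 0.

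The genes whose profiles were most like that of Irs2, the largest rise, were found by the root mean square difference over the 10 arrays after centring within each drug batch. Leap2, which encodes a liver-expressed peptide that opposes ghrelin, differed by 0.06 and rose by 0.41. Jmy, which encodes a p300-binding cofactor that also nucleates actin, differed by 0.06 and rose by 0.41, and Bhlhe40, a repressor of the circadian clock, differed by 0.07 and rose by 0.25. Ankrd33 and Myo1g, an unconventional myosin, were the other two, at 0.07 each, with rises of 0.30 and 0.31. Leap2 and Myo1g were dim, with mean levels of 4.43 and 4.71, under the 5.43 set by olfactory receptor genes, and of the 3479 genes with levels between 4 and 5, 1261 rose. For Cited2, the largest fall, the closest profiles were those of Elapor1 (0.03), Bace1, the beta-secretase (0.04), Kcnd2, a potassium channel (0.04), Sv2b, a synaptic vesicle protein (0.04), and Kidins220, a scaffold of neurotrophin receptors (0.04). Their changes ran from −0.32 to −0.22, and Elapor1 did not pass (−0.22, limma adjusted p = 0.0731) but was called in 6 of its 22 alternatives, one of them the fit without both b arrays (−0.36, limma adjusted p = 0.000485). After cyclic loess Bace1 (limma adjusted p = 0.204), Kcnd2 (0.354) and Kidins220 (0.111) did not pass, and Sv2b did (0.015). These profiles share the arrays and their batches, and the lists are a description.

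**Figure D4:**
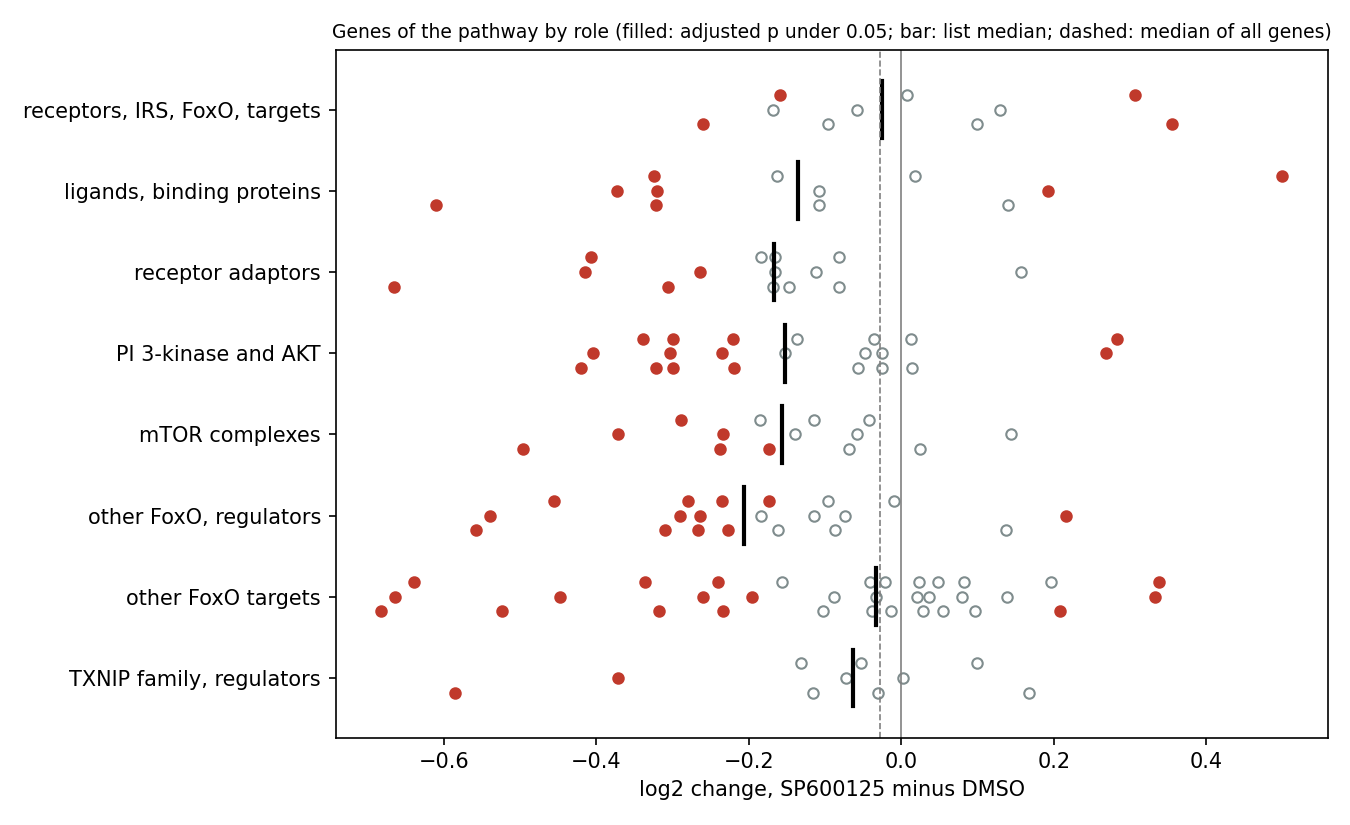
Log2 change, SP600125 minus DMSO (x axis), of the 10 genes (top row) and of 124 other genes of the pathway by role, filled where the adjusted p was under 0.05. Black bars are list medians and the dashed line is the median of all genes at −0.03, dim genes included. In level bins between 6 and 9 the median of all genes was −0.24 to −0.14. The medians of the ligand, adaptor, PI 3-kinase, mTOR and FoxO regulator lists lie between −0.21 and −0.14, and those of the FoxO targets and the TXNIP family at −0.03 and −0.06.

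Of 124 other measured genes of the pathway in 7 lists, 8 rose, 50 fell and 66 did not pass, so that 46.8% were called against 46.9% of all genes, with 17.0% of all genes higher and 29.9% lower. The counts of the single lists are to be read against these shares. The median change of the 124 genes was −0.14 against −0.03 for all genes. Many of the 124 lie at mean levels between 6 and 9, where the median of all genes was also lower. It was −0.14 between 6 and 7, −0.22 between 7 and 8 and −0.24 between 8 and 9. After cyclic loess the median of the 124 was −0.03 against −0.02. There 9 were higher and 30 lower, against 9.44% of all genes higher and 17.7% lower. Of 12 ligands and binding proteins, 2 rose and 5 fell. Igfbp2, an IGF binding protein of progenitors and glia, fell to 9.28 ± 0.14 after SP600125, against 9.89 ± 0.22 after DMSO (SD, n = 5, change −0.61, SE 0.06, limma adjusted p = 5.25e-05). The growth factor gene Igf1 fell by 0.37 (SE 0.06). Insrr, the orphan member of the insulin receptor family, rose by 0.50 (SE 0.06) at a dim level of 5.45 ± 0.08 after SP600125 and 4.95 ± 0.09 after DMSO, with the 2 groups not overlapping. The other rise, Igfbp1, another IGF binding protein, was dim (mean level 5.01) and was named after its value was seen (0.19, SE 0.06, limma adjusted p = 0.0258) and did not pass after cyclic loess (0.05, limma adjusted p = 0.558).

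Of 14 receptor adaptors, 0 rose (0 also after cyclic loess) and 5 fell, and 9 did not pass. The neuronal adaptor Shc3 fell by 0.67 (SE 0.08), its relative Shc1 by 0.41 (SE 0.08), and Ptpn1, the phosphatase that turns off the insulin receptor, by 0.41 (SE 0.08). Of 21 genes of PI 3-kinase and AKT, 2 rose, 10 fell and 9 did not pass. The catalytic subunit Pik3cb fell by 0.42 (SE 0.09), the regulatory subunit Pik3r3 by 0.40 (SE 0.07), and Sgk1, a kinase related to AKT, by 0.34 (SE 0.06). Akt1 fell by 0.32 (SE 0.07) but not after cyclic loess (−0.16, limma adjusted p = 0.0725), and Pik3ca fell by 0.24 (SE 0.05) but was at −0.05 after cyclic loess and −0.08 after quantile normalization. Akt2 (−0.04, SE 0.06) and Pik3r1 (−0.06, SE 0.06) did not pass, and both turned positive after cyclic loess, at 0.14 and 0.09. The 2 rises, named after their values were seen, were Pik3cg, a catalytic subunit of leukocytes (0.27), and Inpp5d, a lipid phosphatase of blood cells (0.28), and neither passed after cyclic loess. Both were dim, with mean levels of 4.32 and 5.23, and so may be close to background. Among all genes the median change was 0.15 at mean levels between 4 and 5, and 0.08 between 5 and 6.

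Of 14 genes of the mTOR complexes, 0 rose and 6 fell, and 2 fell after cyclic loess. Mtor, the kinase itself, fell by 0.50 (SE 0.08), Tbc1d7, a subunit of the TSC complex, by 0.37 (SE 0.07), and Mlst8, a subunit of both mTOR complexes, by 0.29 (SE 0.08), the last not after cyclic loess (−0.18, limma adjusted p = 0.0885). Of 20 other FoxO factors and regulators, 1 rose and 11 fell. Foxo4 rose by 0.22 (SE 0.06) but not after median centring (0.12, limma adjusted p = 0.165), and Foxo6 did not pass (−0.18, SE 0.10). Foxo6 was called in 7 of its 22 alternatives, among them cyclic loess (−0.28, limma adjusted p = 0.0446) and the fit without both b arrays (−0.27, limma adjusted p = 0.0166). The 14-3-3 genes Ywhag and Ywhah fell by 0.56 (SE 0.10) and 0.54 (SE 0.07), and the methyltransferase gene Prmt1 by 0.46 (SE 0.06). These 3 also fell under each of the 4 other scalings.

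Of 33 other genes described as FoxO targets, 3 rose, 11 fell and 19 did not pass. The falls were led by Ccnd2 (−0.68, SE 0.06) and Ccnd1 (−0.66, SE 0.07), D cyclins that FoxO factors are known to repress, and by Bnip3, a mitophagy receptor (−0.64, SE 0.17). Bnip3 was at 8.69 on SP600125 replicate b against at most 7.65 on the other SP600125 arrays, and its change was −0.92 without both b arrays. The other falls were named after their values were seen. They were Ppargc1a (−0.52), Sod2 (−0.45), Gadd45a (−0.34), Sesn1 (−0.32), Bcl6 (−0.26), Cat (−0.24), Prdx3 (−0.23) and Myc (−0.20). The 3 rises, named after their values were seen, were Pdk4 (0.34, SE 0.08), a kinase that shuts off pyruvate oxidation, Sesn2 (0.33, SE 0.08), a stress-induced inhibitor of mTOR, and Trp53inp1 (0.21, SE 0.07). Trp53inp1 passed in 5 of the 10 fits without 1 array and did not pass after median centring (0.11, limma adjusted p = 0.215) or with the replicate block (limma adjusted p = 0.0518). Sesn2 was separated between the groups and was larger after cyclic loess (0.51, limma adjusted p = 0.000388), while Pdk4 was dim (3.86 ± 0.12 after DMSO) and did not pass after it (0.21, limma adjusted p = 0.0597). Of 10 relatives and regulators of TXNIP, 0 rose and 2 fell, namely the thioredoxin reductase Txnrd1 (−0.59, SE 0.05) and Mlx, the partner of MondoA (−0.37, SE 0.06). Arrdc4, the closest relative of Txnip in its glucose response, did not pass (−0.05, SE 0.06, and 0.13 after cyclic loess).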

How the data were processed

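Total RNA of 5 SP600125 and 5 DMSO samples was hybridised to Affymetrix whole-transcript arrays, per the labels' protocols. The deposited values are log2 expression per probe set, and the submitters' processing notes name oligo 1.14.0. The sources used here state no background correction, normalization or summarization, and the log2 scale was taken from the values (1.90 to 13.8). Log2 array values compress changes of dim probe sets. The dim reference itself was higher after SP600125, where the medians of the 1015 olfactory receptor genes averaged 3.89, against 3.65 after DMSO. The part of this shift in the rises of dim genes was not tested. Of 35556 probe sets, 21789 carried 1 symbol in the platform annotation, 1621 several and 12146 none. Each gene took its single-symbol probe set with the highest mean, giving 19938 genes.

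Differences (SP600125 minus DMSO) were fitted by limma's lmFit and eBayes (limma 3.58.1, R 4.3.3, two-sided tests) with treatment and drug batch as terms, 7 residual degrees of freedom and Benjamini-Hochberg adjustment over all genes at 0.05. No array pair was a duplicate (smallest mean difference 0.16). The number of arrays limits the precision. The fit was run on simulated data with the residual spread of these arrays and 50 genes changed by each of 4 sizes. It recovered 16% of changes of 0.25, 56% of 0.35, 88% of 0.5 and 100% of 1. Far fewer genes were changed there than passed here, so these rates need not hold for the data.

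The alternatives were 4 other scalings, no batch term, a replicate block, a level filter at 5, limma-trend, each drug batch alone, each array left out, and both b arrays left out. Promoter windows are from RefSeq (GRCm38.p6). All 10 members are named, and from each list at most 3 genes, those of largest change that passed, with Akt1, Akt2, Mtor, Foxo4, Foxo6, Arrdc4, Pik3r1 and Pik3ca always, plus 5 genes of most similar profile for the largest rise and fall. Other list genes are marked as named after their values were seen. The members and lists were chosen with earlier results of these data known. Of 132 list genes, 124 had a single-symbol probe set.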

Additional observations from a re-analysis of the deposited data

Results flagged for a closer look

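None of the 10 members had an array far from the other 4 of its group by Dixon's criterion (0.71 for 5 samples). Of 106 groups of 5 arrays tested, 17 held such an array, and chance flags about 1 in 20 groups. Markers and the falls of FoxO targets that were named after their values were seen, such as Sod2, were not in this test. Of the 17, 12 lay on a b array. On SP600125 replicate b the high values were those of Ywhah (10.80), Bnip3 (8.69), Elapor1 (6.67), Bace1 (7.72), Kcnd2 (9.10) and Kidins220 (9.64). On DMSO replicate b the low values were those of Shc3 (8.62), Ywhah (10.95), Elapor1 (6.30), Bace1 (7.50) and Kcnd2 (8.75), and Ankrd33 was high (5.62). Elapor1, Bace1, Kcnd2 and Kidins220 were named for their likeness to Cited2, whose b arrays are turned round, so they are not independent of it. The other arrays were DMSO replicate e for Pik3cb (7.93, high) and Arrdc4 (7.64, high), SP600125 replicate d for Pik3r1 (9.37, high) and Igfbp1 (5.29, high), and SP600125 replicate a for Bhlhe40 (6.85, low).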

How the results depend on the processing

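On the deposited values 4 members, 9351 of all genes and 58 of the other pathway genes passed. In the fits without 1 array, 2 to 6 members passed (2 to 3 higher, 0 to 3 lower), as did 7673 to 9687 of all genes (2392 to 3475 higher, 5106 to 6355 lower) and 51 to 68 pathway genes (5 to 10 higher, 46 to 58 lower). The falls of Igf1r and Cited2 were both lost without SP600125 replicate a, SP600125 replicate d, DMSO replicate a, DMSO replicate d or DMSO replicate e. Members higher numbered 1 after median centring, 4 after cyclic loess and 5 after cyclic loess without both b arrays (chosen after seeing the data). Members lower numbered 0 after quantile normalization, 4 after median centring, 0 after cyclic loess, and 1 with named-gene centring, without the batch term, in drug batch 2 alone, and after cyclic loess without both b arrays. Over all genes, 5991 passed after quantile normalization (1497 higher) and 5419 after cyclic loess (1882 higher, 3537 lower), and 1500 were higher after median centring, 1613 with the level filter and 2206 in drug batch 2 alone. Of the pathway genes, 5 were higher after quantile normalization, 3 after median centring, 14 after centring on named genes, 5 in drug batch 2 alone and 16 after cyclic loess without both b arrays. Pathway genes lower numbered 78 after median centring, 30 after cyclic loess and 33 after cyclic loess without both b arrays. In drug batch 1 alone, 0 members, 0 pathway genes and 1 of all genes (0 higher, 1 lower) passed in limma, with 3 members at an unadjusted p under 0.05, and fewer arrays entered that fit.

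Directions turned as follows. After cyclic loess the change was 0.0203 for Insr, 0.0234 for Igf1r, 0.0912 for Irs1, 0.0938 for Txnip, 0.1364 for Akt2, 0.13 for Arrdc4 and 0.0861 for Pik3r1. With both b arrays also left out it was 0.1097 for Insr, 0.0515 for Igf1r, 0.0472 for Irs1, 0.2155 for Txnip, 0.1393 for Akt2, 0.1813 for Arrdc4 and 0.1216 for Pik3r1. Quantile normalization gave 0.0495 for Irs1, 0.0098 for Txnip, 0.1149 for Akt2 and 0.0705 for Arrdc4, median centring gave −0.0938 for Foxo1 and −0.0018 for Foxo3, and centring on named genes gave 0.0065 for Akt2. Without both b arrays Foxo1 was at −0.0229 and Txnip at 0.0414. Drug batch 1 alone gave 0.0257 for Irs1, 0.0042 for Akt2, 0.0023 for Foxo6 and 0.0213 for Elapor1. Drug batch 2 alone gave −0.0697 for Foxo1, 0.0993 for Txnip, 0.0157 for Arrdc4 and 0.0072 for Pik3r1. The mean of all Irs1 probe sets changed by 0.0896. Without 1 array, Foxo1 ran from −0.0175 to 0.0537 and Txnip from −0.0992 to 0.0049. The cause of these turns was not tested.

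With the replicate letter as a block, 2 members passed (2 higher, 0 lower), and Igf1r (adjusted p = 0.075) and Cited2 (adjusted p = 0.062) did not. Whether the letters pair the samples cannot be settled from these arrays. Deviations from group and batch means correlated at −0.05 to 0.04 between same-letter arrays c, d and e. For a and b the value was −0.34, shared by construction because drug batch 1 holds 2 arrays per group. Of 5 SP600125 arrays 1 correlated best with its own letter, by deviations from group means. The number of arrays limits what could be detected, and dim probe sets such as the second one of Irs1 lie within the range of olfactory receptor genes.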
